A study of Homo sapiens with 2 samples.

Results

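Dense clusters of neighbouring DEK regions are described here, that is, stretches of chromatin in which at least 4 DEK regions follow each other closely beside a protein-coding gene. The regions were chosen by where the peaks of both replicates lay: a peak of one replicate and a peak of the other, on chromosomes 1 to 22, made a shared region where they had 1 bp or more in common, shared regions at most 12.5 kb apart were linked into chains, and chains of at least 4 within 50 kb of a RefSeq protein-coding gene were kept. This gave 520 member regions in 108 chains, of 12456 shared regions in all, or 4.17%. Because peak positions in these same libraries chose the members, every value of their peaks is given as a description without a test.

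The study mapped chromatin bound by DEK with ChIP-seq in the established line 786-O, derived from a human renal carcinoma. Both libraries belong to 1 group, labelled negative control and named for Cas9, with a wild-type genotype and DEK as the antibody; the labels do not say whether the control is the cells or the precipitation, nor whether the replicates were separate cultures. Replicate 1 had 19128 peaks and replicate 2 had 24580, called separately by the authors. No other group, input or edited line was analysed here, so the comparisons are between the replicates and between chain regions and the other shared regions.

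DEK is an abundant nuclear protein that binds DNA and histones, takes part in histone deposition and chromatin folding, and is often raised in tumours. Peaks that lie close together along a gene are commonly joined in analyses of enhancers, since a dense series of bound sites can mark a long regulatory domain, but a dense series also arises where a sequence is repeated in tandem or where chromatin is recovered well over a whole locus. 786-O cells lack functional VHL, the protein that marks hypoxia-inducible factors for destruction, and are known for constant activity of HIF-2.

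The sequences shown are those of start sites lying wholly inside a chain region, because they are the only DNA letters of the chains in the tables used here. RefSeq promoter windows of 300 bases, from 250 before to 50 after a start site, were taken from GRCh38.p14. Each is printed 5′ to 3′ on the strand of its gene, with capitals for a match on either strand to a searched motif. The motifs were TGACTCA and its variant for AP-1, TGAGTCA. The core of the hypoxia response element was searched as ACGTG and the E-box as CACGTG. The letters CCAAT, which NF-Y binds, the GC box as GGGCGG and the TATA box as TATAAA were searched too.

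HAVCR1, chr5:157059067-157059366, minus strand: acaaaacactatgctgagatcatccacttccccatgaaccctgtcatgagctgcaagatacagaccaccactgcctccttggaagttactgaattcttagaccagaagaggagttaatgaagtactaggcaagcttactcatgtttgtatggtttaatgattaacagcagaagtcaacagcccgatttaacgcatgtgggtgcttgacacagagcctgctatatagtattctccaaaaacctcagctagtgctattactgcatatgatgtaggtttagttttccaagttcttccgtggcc
NDST1, chr5:150497529-150497828, plus strand: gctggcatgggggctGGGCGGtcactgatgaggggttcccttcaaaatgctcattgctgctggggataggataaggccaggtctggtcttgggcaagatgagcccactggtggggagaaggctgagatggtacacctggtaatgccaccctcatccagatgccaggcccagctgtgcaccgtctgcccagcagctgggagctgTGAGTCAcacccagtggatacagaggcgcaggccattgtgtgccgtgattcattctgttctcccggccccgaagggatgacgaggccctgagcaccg
SMAD7, chr18:48942758-48943057, minus strand: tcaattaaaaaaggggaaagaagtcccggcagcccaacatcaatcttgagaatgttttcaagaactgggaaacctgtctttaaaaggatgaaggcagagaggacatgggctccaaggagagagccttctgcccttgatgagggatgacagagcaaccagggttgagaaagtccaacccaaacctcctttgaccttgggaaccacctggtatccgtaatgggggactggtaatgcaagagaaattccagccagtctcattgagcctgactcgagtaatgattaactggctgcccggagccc
MAP2K3, chr17:21287786-21288085, plus strand: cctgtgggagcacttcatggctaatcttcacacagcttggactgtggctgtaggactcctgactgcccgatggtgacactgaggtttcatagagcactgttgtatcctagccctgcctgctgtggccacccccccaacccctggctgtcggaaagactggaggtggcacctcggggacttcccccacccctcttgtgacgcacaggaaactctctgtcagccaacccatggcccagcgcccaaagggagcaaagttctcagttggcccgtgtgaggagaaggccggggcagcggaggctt
SEPTIN9, chr17:77287685-77287984, plus strand: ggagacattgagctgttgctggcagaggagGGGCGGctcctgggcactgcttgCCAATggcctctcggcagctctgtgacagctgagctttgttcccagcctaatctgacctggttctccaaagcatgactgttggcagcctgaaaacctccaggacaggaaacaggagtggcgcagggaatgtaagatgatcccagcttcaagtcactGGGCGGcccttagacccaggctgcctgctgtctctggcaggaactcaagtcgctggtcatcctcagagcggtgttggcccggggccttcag
HOXA3, chr7:27118308-27118607, minus strand: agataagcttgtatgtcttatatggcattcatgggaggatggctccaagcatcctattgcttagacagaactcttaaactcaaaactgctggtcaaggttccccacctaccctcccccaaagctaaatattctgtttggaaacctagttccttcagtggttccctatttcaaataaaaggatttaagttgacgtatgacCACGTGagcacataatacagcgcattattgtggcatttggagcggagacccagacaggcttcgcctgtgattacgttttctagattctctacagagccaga

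The authors' fold enrichment is the ratio of the signal at a peak's summit to its background, with 1 added to each. It was 5.26 in replicate 1 and 4.89 in replicate 2 at the HAVCR1 window, which held none of the marked motifs. At the NDST1 window, with TGAGTCA and GGGCGG, it was 3.61 and 4.25, and at the SEPTIN9 window, with CCAAT and a pair of GC boxes, 3.57 and 3.37. The HOXA3 window held the E-box, which contains the ACGTG core on both strands, and had 3.48 and 3.37. The windows of SMAD7 (3.74 and 4.0) and MAP2K3 (3.38 and 3.97) held none. The windows of SMAD7, SEPTIN9, MAP2K3 and HOXA3 belong to start sites downstream of the first one listed for those genes, and the listed start site of HAVCR1 also lies inside the gene's annotated extent, in a region 25.8% of the way along it. Of 33725 windows, 26 were touched by a member region and 7 lay wholly inside one, the windows above and that of the long non-coding RNA gene LOC124902540 next to KLF6.

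Among the 26 touched windows, 6 (23.1%) held the AP-1 motif, against 12.2% of the 1040 windows touched by another shared region and 4.91% of all windows. The GC box was in 30.8% of them, against 57.8% and 45.0%, and the median number of CG dinucleotides was 8, against 18 and 14. CCAAT was in 50%, against 63.4% and 34.4%. The ACGTG core was in 23.1%, against 28.4% and 21.3%, and CACGTG in 7.69%, against 8.85% and 7.18%. TATAAA was in 3.85%, against 6.92% and 11.6%, and GGAA, the core of ETS sites and left unmarked in the printed windows, in 100%, against 96.9% and 95.5%. These shares are descriptions of letters in 26 windows, several of which share a chain.

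Most chains were short. Of the 108 chains, 64 had 4 regions, 30 had 5, 6 had 6 and 4 had 7, and 14 chains had at least 6 regions and held 114 of the 520. A pair of chains had 9 regions, 1 had 11 and 1 had 21. The chains spanned 4.0 to 68.9 kb (median 21.8 kb) and covered 2.45 Mb together, of which the regions themselves took a median of 10.2% per chain (5.15% to 40.7%). The 412 gaps between neighbours had a median of 5.28 kb, and 99 of them (24.0%) were under 1 kb while 70 were 10 kb or more. On either side of the thresholds, the nearest gap that joined regions of any chain was 12.471 kb and the nearest that did not was 12.505 kb, 247 chains near a gene had 3 regions, and the farthest gene of a kept chain lay 40.2 kb away (CWH43) and the nearest of a chain left out 54.9 kb (MAP4K3).

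**Figure D1:**
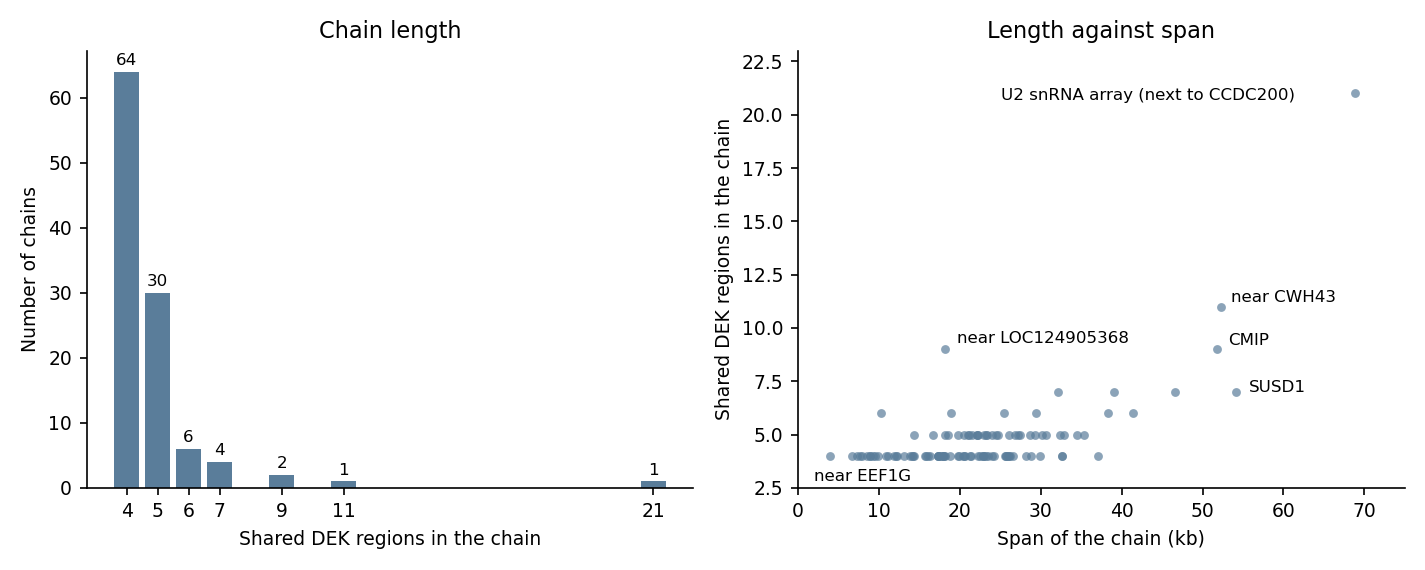
Left, number of chains (bars) by the number of shared DEK regions in the chain. Right, each chain as a point, with its span in kb on the x axis and its number of regions on the y axis: the chain over the U2 snRNA genes stands alone at 21 regions and 68.9 kb, and the shortest chain, near EEF1G, spans 4.0 kb.

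Each library had 531 peaks in the 520 member regions. Every region had to hold a peak of each replicate, so like counts follow from the rule. Within the chain spans a further 26 peaks in 20 chains were seen in replicate 1 only and 71 peaks in 45 chains in replicate 2 only. Fold enrichment ranged from 2.12 to 14.0 in replicate 1 and from 1.97 to 11.9 in replicate 2. Across the 520 regions the Spearman correlation of fold enrichment between replicates was 0.720, and that of the summit pileup was 0.868. Over the shared regions in no chain of at least 4 that of fold enrichment was 0.597. These points share a library and a locus and are a description. The strongest region of a chain was the same in both replicates in 58 of 108 chains.

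**Figure D2:**
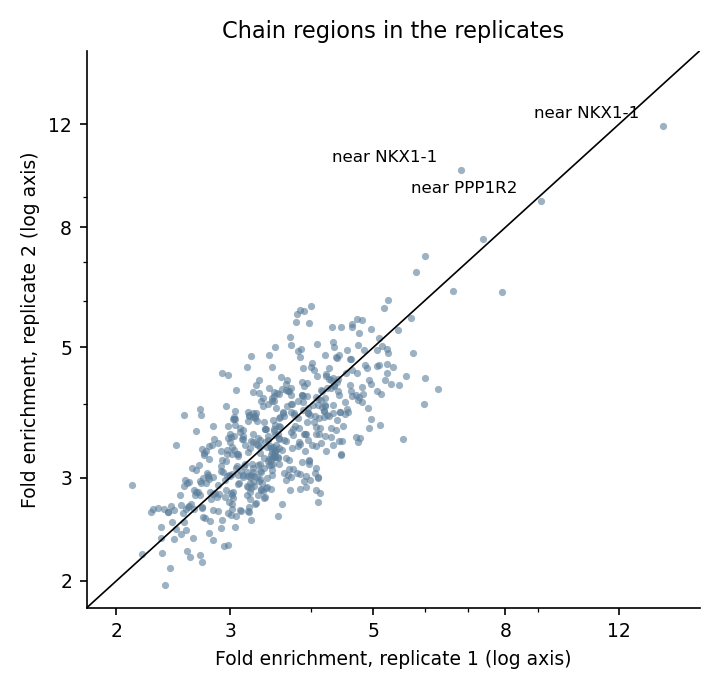
Fold enrichment of the 520 chain regions in replicate 1 (x, log axis) and replicate 2 (y, log axis), with the line of equal values. Most points lie between 2 and 6 in both replicates, and the regions near NKX1-1 and PPP1R2 stand apart at the top.

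Single regions of a chain were not strongly enriched. The median fold enrichment was 3.5 in replicate 1 and 3.49 in replicate 2. It was 4.13 and 4.10 in the 11705 shared regions in no chain of at least 4, a ratio of 0.848 and 0.850. Regions of chains of at least 4 far from genes are left out of these others. Only 34 members in each replicate (6.54%) reached a fold of 5, against 18.6% and 18.9% of the others. The summit pileup, the number of fragments stacked at the summit as recovered from the authors' fold and p, was higher in chain regions, with medians of 30 and 32 against 21 and 22. The background that the peak caller set against it was also higher, with medians of 7.54 and 8.44 fragments against 4.13 and 4.43, or 1.82 and 1.90 times. Chain regions had more fragments at their summits and a lower ratio to their background in both libraries. Whether that background was taken from the same library, and so could hold reads of neighbouring peaks, is unknown, and its part in the lower fold was not tested. The median −log10 q was 5.69 and 6.15, against 5.08 and 5.46, and the median width 456.5 bp, against 428 bp.

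The medians also differed by chain length, with classes of 1 to 3 regions taken at any distance from a gene and classes of 4 or more made up of the members alone. In replicate 1 the median fold enrichment was 4.23 for single regions, 3.90 in chains of 2, 3.73 in chains of 3, 3.54 in chains of 4, 3.49 in chains of 5 and 3.48 in longer chains, and in replicate 2 it was 3.46 in chains of 5 and 3.47 in longer ones. The 231 regions of chains of at least 4 farther than 50 kb from a gene are in none of these classes. Their medians were 4.61 and 4.70, above those of single regions, and many of them lay close to centromeres. The median background over these classes was 3.76, 5.11, 6.05, 7.29, 7.40 and 9.48 fragments. Without 4 chains in or close to repeated sequence, described below, chains of at least 6 had a median background of 7.39 in replicate 1 and 8.04 in replicate 2, and a fold of 3.48 and 3.47. Edge regions of a chain had a median fold of 3.67 and 3.68 and inner regions 3.40 and 3.37, with a background of 7.16 and 7.69 at the edges and 7.93 and 8.87 inside. The strongest region lay at an edge in 57 of 108 chains in replicate 1 and in 62 in replicate 2. Of these chains 64 had 4 regions, 2 of them edges, and a preference for edges was not tested. The strongest region exceeded its chain's median by a median of 1.21 and 1.24 times.

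**Figure D3:**
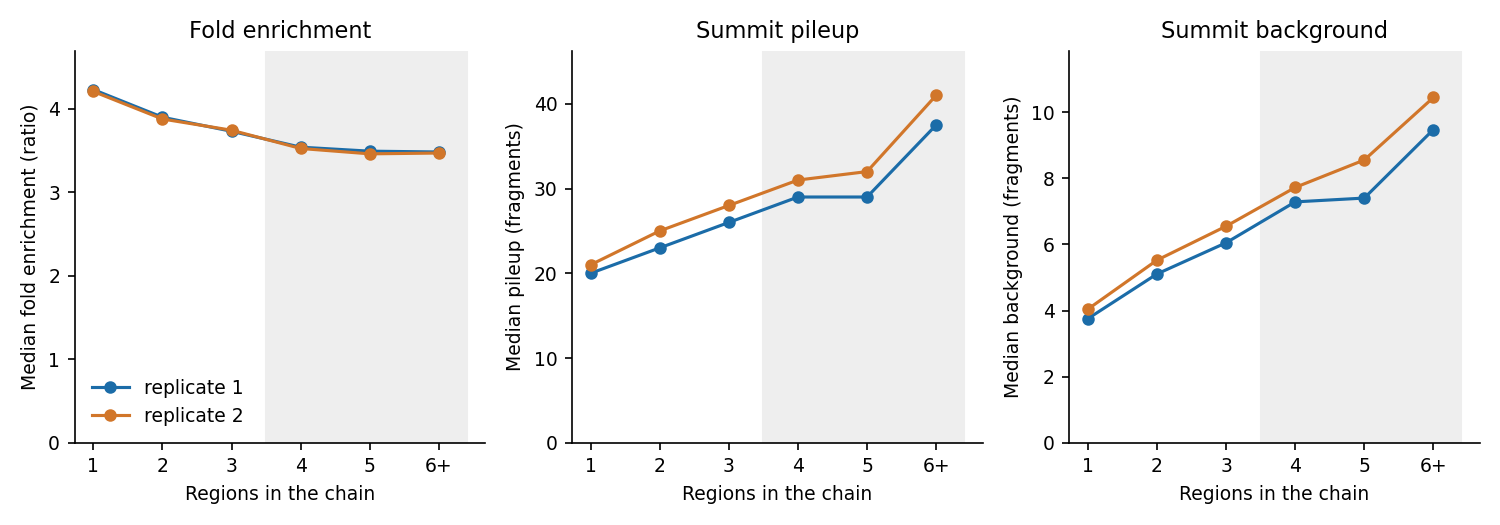
Medians of fold enrichment (left), summit pileup (middle) and summit background (right) by the number of regions in the chain, for replicate 1 and replicate 2. Classes 1 to 3 hold shared regions at any distance from a gene; the shaded classes hold the member regions only, without the 231 regions of chains far from genes. Fold enrichment is 4.23 for single regions and 3.48 in chains of 6 or more in replicate 1, while the background is 3.76 and 9.48.

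The longest chain covered the U2 snRNA genes on chromosome 17 (chr17:43231770-43300624), tandem copies that encode the RNA of the splicing particle that pairs with the intron branch point. Its 21 regions began 0.5 kb from CCDC200, the nearest protein-coding gene, and 12 of the 13 annotated U2 genes in the span, RNU2-1 among them, overlapped a region. The 12 members on a U2 gene had a median fold of 3.26 in replicate 1 and 3.22 in replicate 2, against 2.79 and 2.95 in the other 9, and the U2 genes lay a median of 5.50 kb apart. The highest members were the 1 at the CCDC200 end, at 5.82 and 6.72, and the 1 over LOC124904138, at 6.65 and 6.24. Reads of near-identical copies cannot be assigned to 1 copy with certainty, so values of single copies are uncertain.

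Another 3 of the longest chains are set beside it here, a pair close to centromeres, where repeats are common, and 1 over annotated pseudogenes; copies in the pair were not checked, as no repeat annotation was used. The chain of 11 regions at chr4:49102317-49154604, 40.2 kb from CWH43, had its strongest region at 7.39 and 7.65. The chain of 9 at chr2:90380661-90398777, 19.5 kb from LOC124905368, had folds of 2.2 to 4.47 and backgrounds of 14.2 to 26.8 in replicate 1. The 6 regions at chr1:623883-634194, inside the gene model LOC102724250, lay in part on nuclear copies of mitochondrial genes (MTND1P23, MTND2P28, MTCO1P12 and MTATP6P1), and 5 of them had the highest pileups of the chain, 128 to 259 fragments in replicate 1 and 100 to 228 in replicate 2. Over the 47 regions of these 3 chains and the U2 chain the median background was 14.1 and 15.5 fragments, against 7.35 and 8.09 in the other 473 members. Without these chains, a setting chosen after seeing the data, 104 chains remained, 473 regions and 110 genes, and the longest then had 9 regions.

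CMIP, which encodes an adaptor of T cell signalling, held the longest chain that overlapped a protein-coding gene, 9 regions over 51.8 kb (chr16:81481245-81533079). The folds along it were 3.40, 2.40, 2.78, 3.70, 4.38, 3.14, 3.41, 3.26 and 3.48 in replicate 1 and 3.63, 2.62, 3.0, 3.10, 3.61, 3.52, 3.62, 3.12 and 2.87 in replicate 2. The highest region was the fifth in replicate 1 and the first in replicate 2, and the chain median was 3.26 ± 0.201 (SD, n = 2). CMIP had 19 shared regions in all over its 267.0 kb, and the chain lay between 13.7% and 33.0% of the way along the gene. The background at its summits ran from 6.32 to 15.2 fragments in replicate 1.

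The chains of 7 regions lay at SUSD1, GPR107, SEMA4B and CIB1, and CSF2. SUSD1 (54.1 kb) and GPR107 (32.2 kb) encode membrane proteins, and their chain medians were 3.92 ± 0.112 and 4.02 ± 0.113 (SD, n = 2). The chain of SEMA4B, a semaphorin, and the neighbouring CIB1, a calcium- and integrin-binding protein, spanned 46.6 kb with a median of 3.46 ± 0.311. CSF2 encodes the cytokine GM-CSF, and its chain ran over 39.1 kb (chr5:132064738-132103808), with 2 regions upstream, 1 at the start site and 4 downstream. The region at the CSF2 start site had 3.21 and 2.68. The highest of the chain in replicate 1 was the first region, at 3.66 and 2.97, and the highest in replicate 2 a downstream region, at 3.5 and 4.06, so the replicates ranked them differently.

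The chains of 6 lay at COL18A1, LOC102724250, the HOXA cluster, PIEZO1, MRPS23 and CUEDC1, and NDST1. COL18A1 encodes the basement membrane collagen from which endostatin is cut; its strongest region had 6.02 and 4.44, and its other regions 3.34 to 4.55 and 3.41 to 4.35. In the HOXA cluster, which encodes transcription factors of body patterning, the 6 regions spanned HOXA3 to HOXA6 over 38.3 kb with folds of 2.94 to 4.10 in replicate 1 and 2.29 to 4.63 in replicate 2. PIEZO1, a mechanically gated cation channel, had 3.12 to 4.21 and 2.90 to 4.0. At NDST1, an enzyme of heparan sulfate sulfation, the region on the start site was the strongest of its chain in both replicates, 3.93 ± 0.450 (SD, n = 2). The chain at MRPS23 and CUEDC1 had a median of 3.40 ± 0.080.

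**Figure D4:**
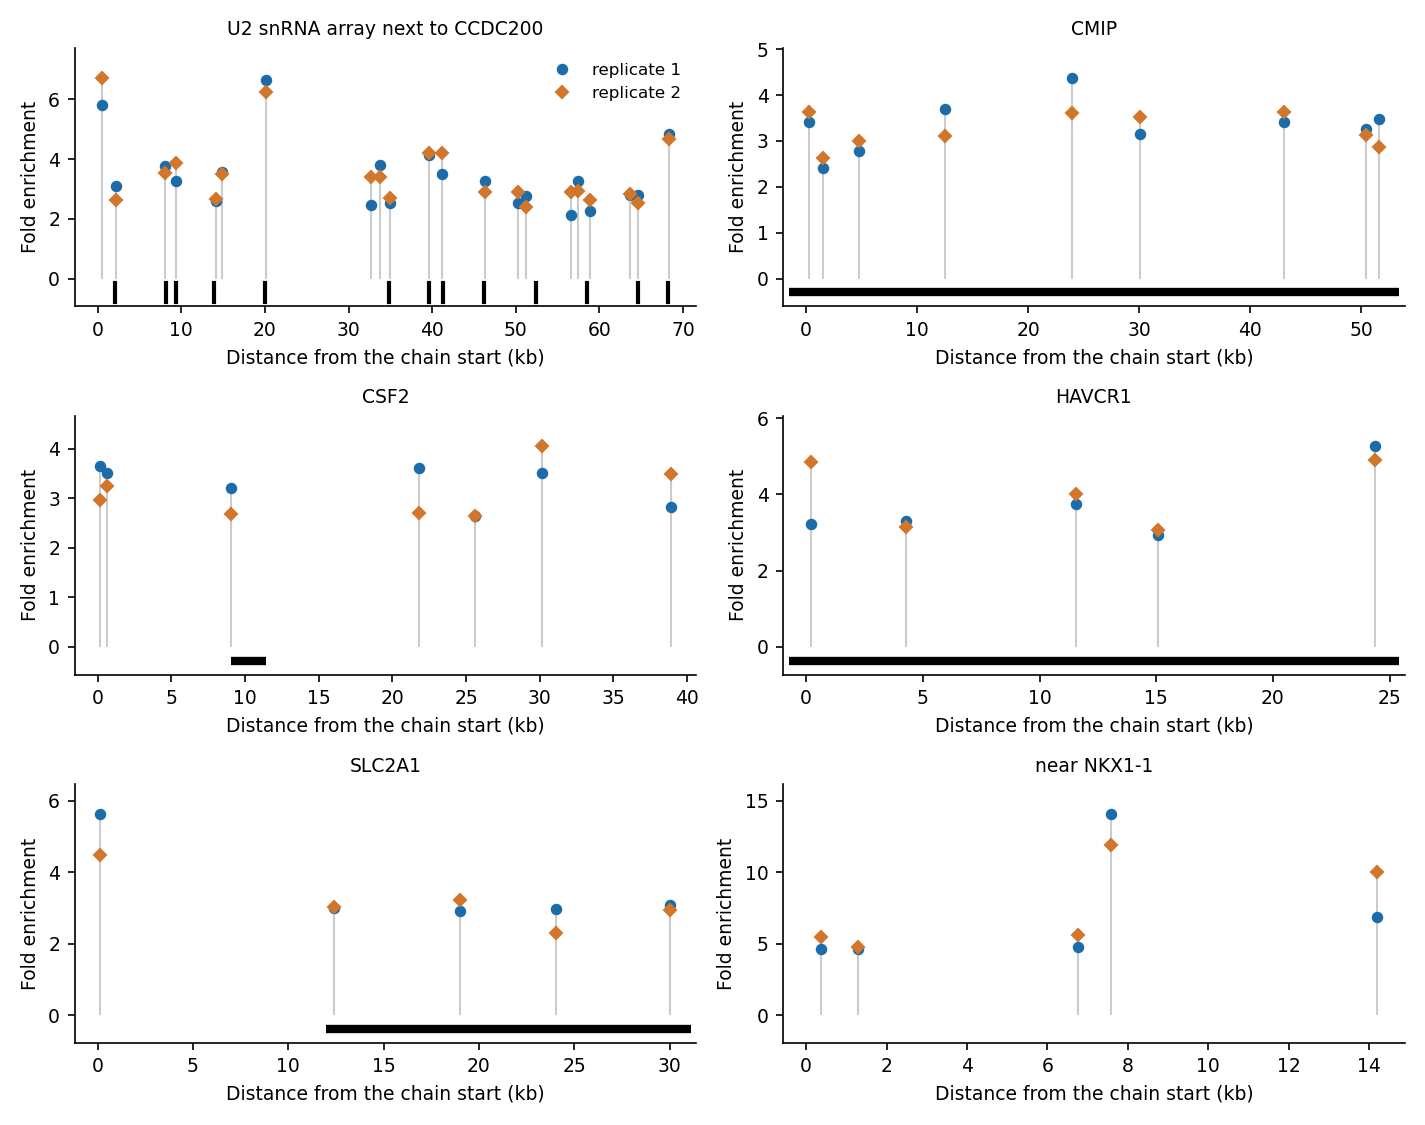
Fold enrichment (y, circles replicate 1, diamonds replicate 2) of each region of 6 chains against the distance of its midpoint from the chain start in kb (x). Black bars mark the named gene and, in the first panel, the 13 U2 snRNA genes. In replicate 1 values run from 2.40 to 4.38 along CMIP and from 2.64 to 3.66 along CSF2. The chain near NKX1-1 has 1 region at 14.0 and 11.9, and the strongest region at SLC2A1 lies outside the gene.

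The chains with the closest neighbours were at EEF1G, LOC102724250, RAPGEF1, MAP2K3 and LOC124905368, with mean gaps of 0.789, 1.51, 1.59, 1.69 and 1.72 kb. The chain near EEF1G, a translation elongation factor, packed 4 regions into 4.0 kb 2.10 kb from the gene, with folds of only 2.57 to 3.10 in replicate 1 and 2.37 to 2.94 in replicate 2. RAPGEF1, an exchange factor for RAP1, had 2.70 to 4.33 and 2.80 to 3.41 in the first part of the gene. MAP2K3, the kinase that activates p38, had 3.19 to 3.38 and 2.76 to 4.10.

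Of the 5 strongest members 4 lay outside protein-coding genes. They were a region of the chain near CWH43, given above, 1 near PPP1R2 and a pair in the chain 21.2 kb from NKX1-1, a gene for a homeodomain protein. In that chain the region at chr4:1434781-1435701 had 14.0 in replicate 1 and 11.9 in replicate 2, the last region had 6.83 and 10.0, and the lowest of the 5 values were 4.61 and 4.78. The chain 12.7 kb from PPP1R2, an inhibitor of protein phosphatase 1, had its first region at 9.08 and 8.86 and its other regions at 3.85 to 4.62 and 3.04 to 4.82. The fifth, in KANK2, an actin regulator, had 7.90 and 6.21, and its chain began beside SPC24, a kinetochore subunit.

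Of the 108 chains, 90 overlapped a protein-coding gene, 74 of them exactly 1, and 54 lay wholly inside 1 gene. In all 111 of 19126 protein-coding genes were overlapped by a chain, which is 0.580%, and 100 by a member region itself. For comparison 22.6% of genes had any shared region, 1.47% lay within 50 kb of a chain and 0.755% of the 10600 genes of 20 kb or more were overlapped by a chain. The chain genes had a median length of 46.0 kb, between that of all genes (24.5 kb) and that of genes with shared regions but no chain (60.4 kb). By their midpoints 65.2% of members lay in a protein-coding gene, against 56.0% of the shared regions in no chain of at least 4. Where the strand was known, they lay at a median of 46.0% and 44.9% of the way along the gene. The 18 chains that overlapped none held 103 regions and lay 0.5 to 40.2 kb from their nearest gene.

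Few members were at start sites. Of the 520 members, 26 (5.00%) had their midpoint within 1 kb of a listed start site of a protein-coding gene. The share was 6.95% in the shared regions in no chain of at least 4. A start was listed for 79.0% of protein-coding genes, and for none on chromosome 8. In 22 chains a start site lay within 1 kb of a region. The 2 cytokine receptor genes among them were IL6R, for interleukin 6, with 3.42 and 2.89 at the start, and OSMR, for oncostatin M, with 2.64 and 2.86. The region 41.3% along IL6R had 4.40 and 4.79, and the last region in the OSMR chain 4.71 and 5.60, both above those at the start in each replicate. At HAVCR1 the start region was the strongest in both replicates, though in replicate 2 by little (4.89 against 4.84 at the far end of the chain).

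HAVCR1 (KIM-1) encodes a membrane protein of injured proximal tubule cells and renal carcinoma. It was the 1 chain gene among 29 renal tubule genes measured (3.45%, beside 0.580% of all protein-coding genes). Its 5 regions (chr5:157034752-157059409) had 3.23, 3.31, 3.73, 2.92 and 5.26 in replicate 1 and 4.84, 3.15, 4.0, 3.07 and 4.89 in replicate 2. The first region differed most between the replicates (SD 1.14, n = 2), and the start region, the fifth, had a mean of 5.08 ± 0.263 (SD, n = 2). PAX8, the lineage factor of kidney epithelium, was the 1 of 25 renal transcription factors (4%), and a single gene says nothing about either list. The 4 regions of its chain, shared with the end of PSD4, had 3.07, 3.39, 2.61 and 3.08 in replicate 1 and 3.13, 2.77, 2.71 and 3.26 in replicate 2, and the 3 in PAX8 lay in the last part of the gene, 82.9% to 95.8% along it.

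Of 36 hypoxia and HIF target genes measured 1, SLC2A1, was overlapped by a chain (2.78%, beside 0.580% of all protein-coding genes), and 16 (44.4%) had any shared region (22.6% of all). A single gene says nothing about the list. SLC2A1 encodes the glucose transporter GLUT1. The 4 regions inside it had 2.99, 2.92, 2.98 and 3.08 in replicate 1 and 3.04, 3.22, 2.30 and 2.93 in replicate 2. The region beyond the end of the gene had 5.61 and 4.47, with a background of 2.74 and 2.80 fragments against 9.72 to 17.3 inside the gene. EPAS1, which encodes the HIF-2 subunit active in these cells, had 2 shared regions that joined no chain, VEGFA and CCND1 had none, and DEK itself had 1.

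In the TGF-beta and BMP pathway ligands signal through receptor kinases to SMAD transcription factors, and inhibitory SMADs feed back. Of its 35 genes 4 were in a chain (11.4%), beside 0.580% of all genes. Any shared region was found in 14 (40%), beside 22.6% of all genes. The list had a median gene length of 78.4 kb. The 4 chain genes had 31.1 (SMAD7), 129.6 (SMAD3), 1.22 (ID1) and 34.8 kb (TGFBI). SMAD7, the inhibitory SMAD, had 5 regions at 3.28, 2.82, 4.79, 3.0 and 3.74 in replicate 1 and 3.81, 3.01, 4.03, 3.45 and 4.0 in replicate 2. SMAD3, a receptor-activated SMAD, had 1 member region in the gene, at 4.14 and 3.64, and 3 upstream, over SMAD3-DT, at 4.15, 3.72 and 4.69 and at 4.07, 3.0 and 4.15. ID1, a target that blocks helix-loop-helix factors, lay within the span of a chain of 4 and held none of its regions, which had 2.73 to 3.72 and 3.16 to 5.21. TGFBI, a secreted matrix protein induced by TGF-beta, had 2.97 to 3.43 and 2.54 to 4.23 along the gene. The lists were drawn up with earlier results of these data known.

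Of the other lists, nuclear receptors had 2 of 46 genes in a chain (4.35%), RXRA and RXRB, both shared partners of many receptors. Over all protein-coding genes 0.580% were in a chain, the share to set beside this list and each list below. Counts of 1 or 2 genes say nothing about a list. The RXRA chain had 3.5 to 3.93 and 2.89 to 3.92, with 2 of its 5 regions in the gene and 3 beyond its end. RXRB shared a chain of 4 with SLC39A7, HSD17B8 and RING1. A single gene was in a chain in the lists of integrins and laminins (ITGB3, of 34), collagens (COL18A1, of 42), RAS-MAPK genes (DUSP1, of 29), immediate-early genes (KLF6, of 29), septins (SEPTIN9, of 12), the BCL2 family (BCL2L1, of 21), histone methylation enzymes (KMT2A, of 36), cytosolic ribosomal proteins (RPS9, of 82), SH2 adaptors (SHB, of 23) and retinoid handling (STRA6, of 22). The other 12 of 28 lists had none: the actin cytoskeleton, receptor tyrosine kinases, NF-kB, WNT, Hippo, lipid metabolism, chromatin remodelers, histones, olfactory receptors, zinc finger genes and the neuron and immune markers. An empty list could still hold shared regions: 22 of 37 cytoskeletal genes (59.5%, median length 55.3 kb) and 3 of 389 olfactory receptors (0.771%, median length 3.0 kb) were overlapped by 1 or more, beside 22.6% of all protein-coding genes (24.5 kb).

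ITGB3, the beta subunit of the vitronectin receptor, had its strongest region at 4.74 and 5.29 and the other 4 at 2.55 to 3.58 and 2.66 to 3.84. DUSP1, a phosphatase that switches off MAP kinases, lay within the span of a chain of 4 and held none of its regions, which had 5.10, 4.46, 4.11 and 3.22 in replicate 1 and 5.19, 3.28, 2.99 and 3.01 in replicate 2; the first region led in both. The KLF6 chain, at a zinc finger gene of early responses, had 1 region with its midpoint in the gene, at 2.58 and 2.68. The other 4 had 3.5 to 4.70 and 2.97 to 3.96, and 1 of them, at 4.70 and 3.52, overlapped the gene's edge. BCL2L1, which encodes the survival protein BCL-XL, had 4.12, 3.35, 3.30, 3.33 and 3.26 in replicate 1 and 3.78, 3.06, 3.0, 3.39 and 4.19 in replicate 2. STRA6, a receptor that takes up retinol, shared its chain of 4 with CCDC33, at 4.57, 3.34, 2.81 and 3.48 and at 3.88, 3.08, 3.41 and 3.32. The chain at KMT2A, a histone H3 methyltransferase gene, had a median of 3.88 ± 0.440 and that at RPS9, a subunit of the small ribosomal particle, 4.36 ± 0.623 (SD, n = 2). TCF7, a WNT effector, had 5 shared regions but no chain longer than 3.

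Some genes held or bordered more than 1 chain. SHB, an adaptor downstream of receptor kinases, had chains of 5 and 4 regions 30.1 kb apart, the strongest of which had 4.74 and 4.07 in the first and 4.43 and 4.86 in the second. SEPTIN9, a cytoskeletal GTPase, had chains of 4 regions 53.2 kb apart with 3 further shared regions between them; the first chain, at its first start sites, had 2.87 to 4.30 and 2.63 to 4.27, and the second 2.55 to 3.63 and 2.52 to 3.81. ARHGAP35 had chains of 5 regions 37.1 kb apart, with no region between and medians of 3.31 ± 0.261 and 3.42 ± 0.314 (SD, n = 2). Neighbouring chains within 200 kb were also at ID1 and BCL2L1 (87.1 kb), SOCS3 and PGS1 (44.5 kb), and DUSP1 and ERGIC1 (123.3 kb).

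Chains were spread unevenly over the chromosomes. Chromosome 1 had 14, chromosomes 2 and 17 had 12 each and chromosome 16 had 10. Chromosomes 5 and 9 had 9 each and chromosome 19 had 8, while chromosomes 8, 13 and 14 had none. Chromosome 8 did hold chains of 5 and 6 regions, left out by the gene rule. Their nearest protein-coding gene was MYC, 108.4 and 155.5 kb away. Per 100 Mb chromosome 17 had 14.4 chains, chromosome 19 had 13.7 and chromosome 16 had 11.1, and chromosome 3 had 0.504. As a share of a chromosome's shared regions, members made up 8.29% on chromosome 16, 8.22% on chromosome 17, 6.83% on chromosome 9, 0.990% on chromosome 3 and 4.17% over all. Over the 22 chromosomes chains per 100 Mb had a Spearman correlation of 0.917 with shared regions per Mb and 0.672 with protein-coding genes per Mb; these points share the same peak lists and are a description.

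**Figure D5:**
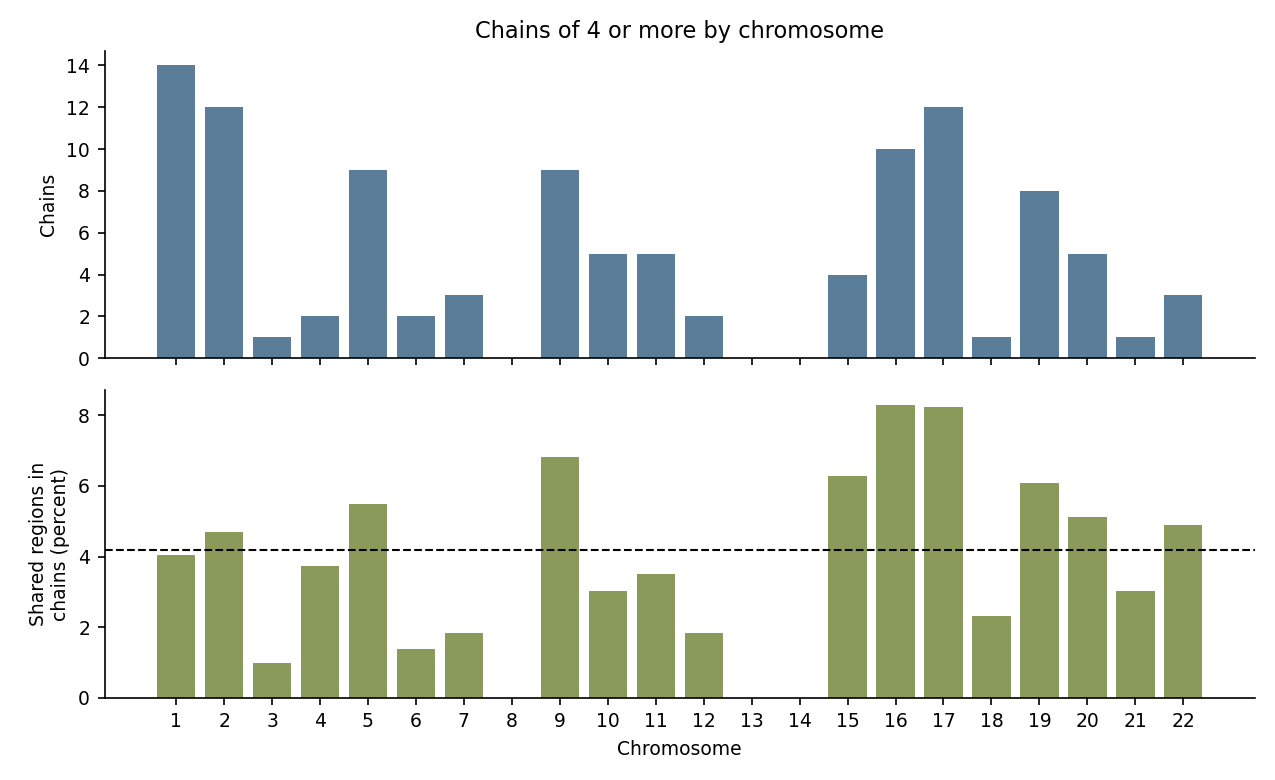
Number of chains (top) and percent of shared regions that lie in chains (bottom) for chromosomes 1 to 22, as bars. The dashed line is the share over all chromosomes, 4.17%, and chromosomes 16 and 17 are highest at 8.29% and 8.22%.

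Non-coding genes lay in many chains. Member regions overlapped 38 of the 45 long non-coding RNA genes in the spans, in 31 chains, and 100 of the 111 protein-coding genes there. Only genes already in a chain span were counted, and no share over all long non-coding RNA genes is given. All 4 regions of the SAMD11 chain overlapped LOC284600, all 4 of the SOCS3 chain LOC105371912 and 4 of the 5 BCL2L1 members the antisense gene BCL2L1-AS1. Of 6 microRNA genes in the spans, MIR12136, in the block of mitochondrial copies on chromosome 1, and MIR3193, in the ID1 chain, were overlapped by a region. MIR21, a microRNA often raised in tumours, lay in the gap between the second and the third region of the VMP1 chain, which had 4.62 and 4.78 and 3.08 and 3.03.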

How the data were processed

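ChIP-seq peak lists of 2 replicates of 1 group were analysed. Per the submitters' processing notes, the build was GRCh38 (hg38) and the tools named, without roles, were the trimmer cutadapt 1.18, the aligner Bowtie2 2.2.5, the peak caller MACS2 2.2.7.1, and also deepTools 3.5.1, DiffBind 3.6.5 and ChIPseeker 1.32.1. The peak names carry 1 library each, so the authors called peaks per replicate. The deposited score is 10 times the −log10 q as a whole number. The deposited fold enrichment is a ratio at the summit, read here as the pileup plus 1 over the background plus 1. The deposited −log10 p and −log10 q are given for that position. The smallest −log10 q was 1.31 and 1.30, about that of a q of 0.05. Use of a control library is not stated in these sources.

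The summit pileup was recovered as the whole number whose fold and Poisson p met the deposited values within a relative tolerance of 5e-05, and the background followed from it. The median pileup over all autosomal peaks was 19 in both libraries, so counting error on 1 peak's fold is wide; the sources used here give no library depth. A region overlapped by several peaks took its strongest one. A region of a gene was given by its midpoint, and chains and genes were compared by 1 bp of overlap. Genes, start sites and promoter sequences came from RefSeq tables of GRCh38.p14; of 111 chain genes 93 had a start site listed. Python 3.11.15, pandas 2.3.3, numpy 2.4.6, SciPy 1.17.1 and matplotlib 3.10.9 were used, and the recovery and chaining were tested on simulated data.

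The members and the 28 gene lists were chosen with earlier results of these data known. The result of 1 list is not reported here. Named genes are those of the 15 longest chains, the 5 densest chains, the 5 strongest regions, up to 4 chain genes per list and 12 fixed genes, of which EPAS1, VEGFA, CCND1, MYC, TCF7 and DEK were in no chain kept. IL6R, OSMR, VMP1, MIR21, SAMD11, SOCS3, PGS1 and ERGIC1 were named after their values were seen. Alternatives for the gap, chain length, overlap, peak threshold, gene distance and each replicate alone were computed. With 2 replicates of 1 group, chosen members and no other condition, no test was made.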

Additional observations from a re-analysis of the deposited data

How the results depend on the processing

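The count of chains depends on every setting that changes which regions join. From 108 chains, 520 regions and 111 genes it went to 10, 57 and 5 with a gap of 5 kb, to 303, 1580 and 411 with a gap of 25 kb, to 355, 1261 and 344 with at least 3 regions, and to 14, 114 and 16 with at least 6. Peaks overlapping by 50% of each gave 65, 316 and 59, peaks with a −log10 q of at least 5 gave 16, 73 and 12, and the 15000 peaks of lowest p in each replicate gave 42, 201 and 37. Without either replicate the peaks of the other alone gave 291 to 451 chains, 1392 to 2264 regions, 324 to 512 genes and a longest chain of 24 to 29 regions. Of the 108 chains, 104 were touched by such a chain without replicate 1, and 107 without replicate 2. Every member region holds a peak of each replicate by the rule, so these 2 counts were largely fixed by the choice of members. The longest chain had 7 regions at that q, 11 among the 15000 peaks, 12 at 50% overlap, 9 where a chain had to overlap a gene, 36 with no condition on genes and 9 without the 4 chains in or close to repeated sequence, a setting chosen after seeing the data.

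The log2 ratio of median fold enrichment, chain regions over others (−0.24, mean of the replicates), was negative under all 12 alternatives: −0.38 at the stricter q, −0.28 among the 15000 peaks, −0.25 at 50% overlap, −0.22 with at least 3 regions, −0.24 with at least 6, −0.24 with gene overlap, −0.20 at 25 kb, −0.41 at 5 kb, −0.16 with no condition on genes, and −0.23 to −0.21 without either replicate. The log2 ratio of median background (0.89) was positive under all 12: 1.321 at the stricter q, 1.06 among the 15000 peaks, 0.84 without the repeated chains, 0.77 with at least 3 regions, 1.19 with at least 6, 0.73 at 25 kb, 1.67 at 5 kb and 0.85 to 0.88 without either replicate. No paired analysis was possible because both libraries belong to 1 group.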

Other observations

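A further 33 chains of at least 4, with 231 regions, lay more than 50 kb from any protein-coding gene. The 2 longest had 36 regions over 91.3 kb on chromosome 1 and 32 regions over 129.1 kb on chromosome 5, and the nearest protein-coding genes were H3-7, 626.5 kb away, and EMB, 728.8 kb away. The 231 regions had a median fold enrichment of 4.61 in replicate 1 and 4.70 in replicate 2, against 3.5 and 3.49 in the chains near genes. The background was alike, 7.46 and 8.70 fragments against 7.54 and 8.44. Many of the 231 regions lay close to centromeres, where repeats are common, and no repeat annotation was used. Medians of single far chains in replicate 1 ran from 2.21 to 8.24. Whether the higher fold goes with distance from genes or with repeats was not tested. On the X chromosome the 134 shared regions formed no chain of 4.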
